A study of Botryllus schlosseri with 27 samples.

Results

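The 2 contigs described here, Bot_c1425 and CAP3_round1_contig_7012, are assembled transcript sequences of the colonial tunicate Botryllus schlosseri whose closest human protein is Macrophage mannose receptor 1. They were picked by their contig identifiers, out of 50106 contigs with read counts, from the study's list of contigs that differed between old and young colonies. The old against young difference is therefore how they came to be chosen, and it is given below as a description without a test. Of the 1998 named rows of that list at hand, 12 carry the same human name, so these 2 are not the only contigs of that name. The human name is a best match by sequence and does not establish orthology. The files used here hold no contig sequence, length or genome position, and none of the contig identifiers was found in the reference gene table (0 matches).

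RNA was taken from whole wild-type colonies raised in the laboratory at one stage of the asexual budding cycle (B2). Colonies came from 3 lines, SB825, SMG and SMH, and each line gave colonies of 3 ages. The old colonies (g1) were 3 years old. The 2-year colonies (g2) were offspring of the old genotype of their line, and the young colonies (g3, 4 months) were offspring of the 2-year genotype, so age cannot be told apart from generation. Each line and age has 3 libraries of 1 genotype, 27 libraries in all. The 3 libraries of a genotype were summed to 1 colony, giving 9 colonies, and n counts colonies unless libraries are named. Levels are in CPM, reads per 1000000 reads of a library size scaled by TMM (trimmed mean of M-values). Contig lengths are not known here, so levels are compared between samples and not between contigs. In whole colonies, fewer cells of a type and less RNA per cell cannot be told apart.

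The vertebrate macrophage mannose receptor is an endocytic C-type lectin of macrophages and some endothelial cells. It binds sugars such as mannose and fucose at the ends of glycoprotein chains, carries its cargo into early endosomes and returns to the cell surface. Tunicates have circulating phagocytes and many genes with C-type lectin domains, and in Botryllus phagocytes clear the dying zooids at the end of each budding cycle. Which cells of the colony express these 2 contigs was not measured.

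Library depth was similar across ages, at 32884060 to 48426188 reads in the old, 33140508 to 43704396 in the 2-year and 31013902 to 45419128 in the young libraries. Within a colony, the libraries differed by more than counting error in all 9 colonies, with chi-square per degree of freedom from 7.47 to 81.6, and none was a repeat deposit. The highest value came from the young SMG colony, where library 1 stood apart from the other 2. It held 4424 CPM over 86 digestive enzyme contigs, against 755 and 301 CPM in libraries 2 and 3. The main results of the 2 contigs that rest on the young colonies are given with and without that library. They are also given without SB825 young library 3, which held the highest level of both mannose receptor contigs among the young libraries.

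Bot_c1425 was high in old and 2-year colonies and low in young ones. In SB825 the 3 old libraries had 31.7, 25.5 and 27.6 CPM, the 2-year libraries 26.7, 33.6 and 23.3 CPM, and the young libraries 2.21, 1.36 and 4.74 CPM. In SMG they had 22.3, 19.7 and 10.9 CPM when old, 20.2, 10.2 and 25.5 CPM at 2 years, and 3.50, 1.09 and 0.98 CPM when young. In SMH they had 19.8, 27.4 and 25.2 CPM when old, 37.7, 21.2 and 36.1 CPM at 2 years, and 1.48, 2.94 and 2.80 CPM when young. All 18 old and 2-year libraries were above all 9 young libraries, the lowest of the older ones being an SMG 2-year library at 10.2 CPM and the highest young one SB825 library 3 at 4.74 CPM. Behind these values were 428 to 1346 reads a library in old, 322 to 1592 in 2-year and 34 to 238 in young colonies.

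Over colonies Bot_c1425 had 23.2 ± 5.87 CPM (SD, n = 3) in old, 24.9 ± 6.51 CPM (SD, n = 3) in 2-year and 2.52 ± 0.43 CPM (SD, n = 3) in young colonies. The old colony exceeded the young colony of its line 10.03-fold in SB825, 8.26-fold in SMG and 9.04-fold in SMH. On the log2 scale young minus old was -3.32, -3.04 and -3.17 in these lines, with a mean of -3.18 (SD 0.14, n = 3 lines). Without young SMG library 1 the mean was -3.49 and the fold in SMG 15.6. Without young SB825 library 3 the mean was -3.45 and the fold in SB825 16.3. The scaling itself moved all contigs together: library totals alone gave a young minus old difference of -3.03, a shift of 0.15 against TMM.

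CAP3_round1_contig_7012 had the same order of ages. In SB825 the old libraries had 40.9, 36.1 and 33.99 CPM, the 2-year libraries 36.9, 44.8 and 34.5 CPM, and the young libraries 3.41, 1.91 and 9.40 CPM. In SMG they had 30.1, 25.6 and 20.8 CPM when old, 26.02, 17.4 and 30.1 CPM at 2 years, and 8.53, 3.38 and 1.33 CPM when young. In SMH they had 32.0, 34.5 and 32.0 CPM when old, 49.3, 33.0 and 51.3 CPM at 2 years, and 3.10, 7.21 and 5.02 CPM when young. Again every older library lay above every young one, with SMG at 2 years lowest among the older libraries (17.4 CPM) and SB825 library 3 highest among the young (9.40 CPM). The reads behind them were 790 to 1740 a library in old, 548 to 2120 in 2-year and 46 to 472 in young colonies.

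The colony levels of CAP3_round1_contig_7012 were 31.5 ± 6.36 CPM (SD, n = 3) in old, 34.6 ± 9.97 CPM (SD, n = 3) in 2-year and 5.23 ± 0.50 CPM (SD, n = 3) in young colonies. Old exceeded young 7.35-fold in SB825, 5.05-fold in SMG and 5.66-fold in SMH. Young minus old on the log2 scale averaged -2.57 (SD 0.28, n = 3 lines), and -2.90 and -2.93 without the same young SMG and SB825 libraries, where the fold was 9.89 in SMG and 14.4 in SB825. Over all 43920 contigs tested, old colonies lay above young colonies without overlap in 10.4%, 2-year above young in 8.9%, and both together in 5.37%. In edgeR's test of old against young 10 contigs (0.0228%) were called. Since the contigs were chosen for this contrast, nothing is read from their place in it.

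**Figure D1:**
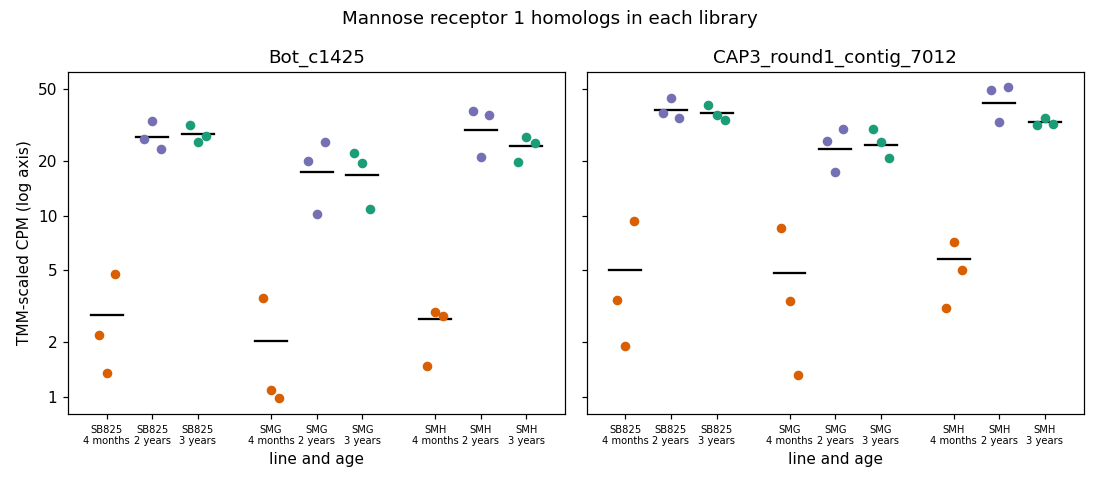
TMM-scaled CPM of Bot_c1425 (left) and CAP3_round1_contig_7012 (right) on a log axis, by line and age; points are libraries and bars the level of the summed colony. Young libraries reach at most 4.74 CPM (left) and 9.40 CPM (right), below every older library.

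In each line the young libraries varied more, relative to their mean, than the old or 2-year libraries. For Bot_c1425 the coefficient of variation over the 3 libraries was 63.6%, 76.7% and 33.6% in young SB825, SMG and SMH, against 11.1%, 33.9% and 16.1% in the old colonies of these lines. For CAP3_round1_contig_7012 it was 80.9%, 84.1% and 40.3% in young and 9.64%, 18.2% and 4.46% in old colonies. Within young SMG the highest library held 6.43 times the CPM of the lowest for CAP3_round1_contig_7012 and 3.57 times for Bot_c1425. The same 2 young libraries, SB825 library 3 and SMG library 1, were highest and second highest for both contigs. The young colony levels therefore rest to a large part on 1 library in each of these lines, with SB825 library 3 giving 238 of the 394 Bot_c1425 reads of its colony and SMG library 1 giving 138 of 214.

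The 2 contigs followed each other closely from library to library. Pearson's r of their log2 CPM was 0.91 over the 9 young libraries (Spearman's rho 0.95) and 0.95 over the 18 old and 2-year libraries (rho 0.92). With 0.5 CPM added before the log, r over the young libraries was 0.92, 0.91 without SMG library 1 and 0.896 without SB825 library 3. These are descriptions over libraries that share colonies. Bot_c1425 had fewer reads in every library, with a log2 ratio of its reads to those of CAP3_round1_contig_7012 from -1.63 to -0.24. The mean ratio was -0.47 (SD 0.21, n = 9 libraries) in old, -0.48 (SD 0.16, n = 9 libraries) in 2-year and -0.96 (SD 0.40, n = 9 libraries) in young libraries. The ratio lay below the range of the 18 older libraries (-0.93 to -0.24) in 5 of the 9 young libraries. Whether the 2 contigs are pieces of 1 transcript, alleles or separate genes was not tested, and reads from near-identical copies could have been divided between them.

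**Figure D2:**
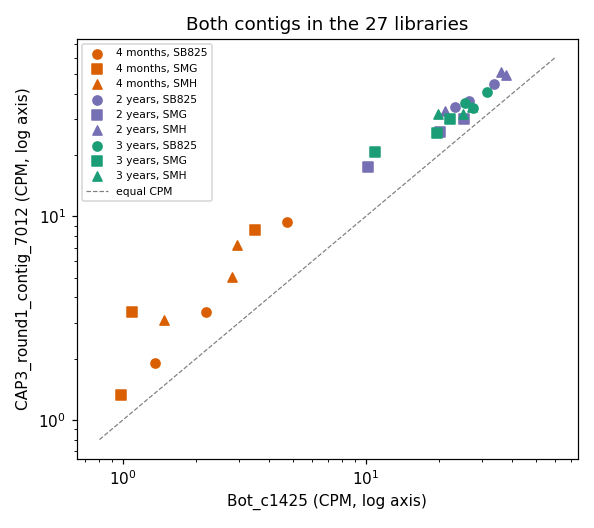
CPM of Bot_c1425 (x axis) and CAP3_round1_contig_7012 (y axis) in the 27 libraries, both on log axes, with colour for age, marker shape for line and a dashed line at equal CPM. All points lie above the line, and the 9 young libraries form a separate group at the lower left with more scatter.

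The 2-year colonies did not enter the study's list of old against young differences. The 2 contigs were taken from that list with earlier results of these data known, so the 2-year values are not an independent check. In the 2-year colonies both contigs stood near the old level. The 2-year minus old difference of Bot_c1425 was -0.04 (SB825), 0.06 (SMG) and 0.28 (SMH) on the log2 scale, a mean of 0.10 (SD 0.17, n = 3 lines). For CAP3_round1_contig_7012 it was 0.05, -0.07 and 0.36, a mean of 0.11 (SD 0.23, n = 3 lines). The young minus 2-year difference was -3.28, -3.10 and -3.46 for Bot_c1425 and -2.92, -2.26 and -2.86 for CAP3_round1_contig_7012. Without young SMG library 1 its mean moved from -3.28 to -3.59 for Bot_c1425 and from -2.68 to -3.01 for CAP3_round1_contig_7012, and without young SB825 library 3 to -3.57 and -3.06. The 2-year libraries overlapped the old ones for both contigs. These differences use the old and young libraries that served the choice, and they carry no test.

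A comparison orthogonal to old against young in its weights sets the 2-year colonies against the mean of the old and young log levels. It asks whether the 2-year level lies midway. It also uses the old and young colonies that served the choice of contigs. A 2-year level equal to the old one lies above the midpoint by an amount set by the old against young difference. The sizes, p-values and ranks below are therefore not independent of that choice. Bot_c1425 was 1.70 higher at 2 years than that midpoint (SE 0.27, 95% interval 1.096 to 2.31, log2 scale) and CAP3_round1_contig_7012 was 1.43 higher (SE 0.25, 95% interval 0.86 to 2.00). Neither passed at a false discovery rate of 0.1. With edgeR's quasi-likelihood test the adjusted p was 0.758 for Bot_c1425 (unadjusted p = 0.00017) and 0.889 for CAP3_round1_contig_7012 (unadjusted p = 0.00037), where over the 15 alternatives run it spanned 8.11e-05 to 1.00 and 0.0013 to 1.00. The 2 contigs ranked 10 and 17 by p among 43920 contigs, of which 0 passed (0%) and 1042 (2.37%) had an unadjusted p under 0.05. DESeq2 on the same colony sums called 118 contigs, both mannose receptor contigs among them, with adjusted p = 8.11e-05 and 0.0013. The call thus depends on the test. With line as a block, edgeR's adjusted p was 0.874 and 0.882.

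A level above the midpoint at 2 years was common among contigs lower in the young. Of the 22513 tested contigs whose fitted level was below the old one in young colonies, 70.6% lay above the midpoint, with a median of 0.25. Among the 1678 such contigs in the named rows at hand the share was 86.9% and the median 1.07. Both mannose receptor contigs exceed that median. With edgeR 22.2% of these 1678 contigs had an unadjusted p under 0.05, against 2.37% of all contigs tested. Leaving out each colony in turn, or either of the young libraries named above, gave 1.56 to 1.90 for Bot_c1425 and 1.26 to 1.65 for CAP3_round1_contig_7012.

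Across lines, both contigs had their lowest colony level in SMG at each age. In the young this order depended on SB825 library 3. The remaining young SB825 libraries had 2.21 and 1.36 CPM of Bot_c1425, and 3.41 and 1.91 CPM of CAP3_round1_contig_7012. The young SMG colony levels were 2.03 and 4.86 CPM, with most reads from SMG library 1. Averaged over the 3 ages on the log scale, Bot_c1425 had 13.0 CPM in SB825, 8.41 CPM in SMG and 12.5 CPM in SMH, and CAP3_round1_contig_7012 had 19.3, 14.1 and 20.03 CPM. SMG minus SB825 on the log2 scale was -0.63 for Bot_c1425 (SE 0.21, 95% interval -1.13 to -0.13, edgeR adjusted p = 0.182) and -0.45 for CAP3_round1_contig_7012 (SE 0.23, 95% interval -1.02 to 0.12, adjusted p = 0.358). SMH minus SMG was 0.57 (SE 0.21, adjusted p = 0.375) and 0.51 (SE 0.23, adjusted p = 0.4932). Between SB825 and SMH the differences were -0.05 (95% interval -0.55 to 0.45) and 0.05 (95% interval -0.51 to 0.62). None of these 6 differences passed the test in a fit with age and line, in which 4.55% of 44811 contigs were called between SB825 and SMG, 1.43% between SB825 and SMH and 0.464% between SMG and SMH. Those percentages rest on single colonies: without the 2-year SB825 colony 0 contigs were called in each of the 3 pairs.

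SMG had the lowest mean of both contigs over its 2-year libraries, an age that the study's list did not use. These are the same 2-year colonies as in the fit above, here compared by library. Single libraries overlapped, as SMG library 3 had 25.5 CPM of Bot_c1425 and SB825 library 3 had 23.3 CPM. SMG minus SB825 was -0.58 (SE 0.45, edgeR adjusted p = 0.284) for Bot_c1425 and -0.66 (SE 0.49, adjusted p = 0.272) for CAP3_round1_contig_7012. SMH minus SMG was 0.77 (SE 0.45, adjusted p = 0.190) and 0.86 (SE 0.50, adjusted p = 0.183). SMH minus SB825 was 0.18 (95% interval -0.74 to 1.11) and 0.20 (95% interval -0.83 to 1.23). None of the 6 passed, while 61.4%, 56.3% and 46.6% of 43180 contigs were called between SB825 and SMG, SB825 and SMH, and SMG and SMH. These p-values measure only the spread between libraries of 1 genotype, and the 95% intervals for SMH minus SMG reach from -0.17 to 1.71 and from -0.18 to 1.91.

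The young minus old difference spanned 0.28 between the lines for Bot_c1425 (-3.32 to -3.04) and 0.54 for CAP3_round1_contig_7012 (-2.87 to -2.33). These spans rest on single young libraries: they were 0.77 and 0.78 without SMG library 1 and 0.91 and 1.43 without SB825 library 3. A fit to the libraries with a line by age term called 34909 of 43180 contigs (80.8%) and neither of these 2, which were also not called without either library. That fit sets differences between single colonies against the spread between libraries of 1 genotype. For these 2 contigs that spread was wide in the young, with coefficients of variation up to 76.7% and 84.1% in SMG. The missing call therefore does not show that the lines were alike. The contigs were listed on this same contrast, so the spans and the fit are a description only.

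The other 10 contigs named Macrophage mannose receptor 1 had the same direction. For all 12 contigs of that name the 3 old colonies lay above the 3 young ones (10.4% over all contigs), which their listing favours. For 11 of 12 the 2-year colonies lay above the young ones too, Bot_c13530 being the exception. Over all contigs, 4549 had old colonies above young ones, and 2358 of these also had 2-year colonies above young ones. The counts of 12 and 11 were unchanged without young SMG library 1 or young SB825 library 3. The 10 had a median fitted young minus old difference of -2.97 (-4.10 to -1.62), against -0.03 over all contigs tested. At 2 years all 10 lay above the midpoint of old and young, with a median of 1.37 against 0.00 over all contigs. Among the named rows at hand that were lower in the young, 86.9% lay above it, with a median of 1.07. Of the 10, 3 had an unadjusted p under 0.05 in edgeR's test of that comparison, as had 22.2% of those named rows. After adjustment with edgeR 0 passed, as did 0 of all 43920 contigs.

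Among these 10 the contig with most reads was CAP3_round1_contig_9483, with 34.1 ± 6.91 CPM (SD, n = 3) in old, 32.0 ± 14.8 CPM (SD, n = 3) in 2-year and 11.1 ± 2.86 CPM (SD, n = 3) in young colonies. Its old to young folds in SB825, SMG and SMH were 2.82, 2.53 and 4.21, smaller in each line than that of either of the 2 contigs above. CAP3_round1_contig_9503 had 11.1 ± 6.503 CPM in old, 12.3 ± 3.66 CPM in 2-year and 2.00 ± 1.55 CPM in young colonies (SD, n = 3 each), with folds of 3.14, 27.8 and 5.97 in the 3 lines. Bot_rep_c58343 had 9.91 ± 2.94, 9.24 ± 1.45 and 2.94 ± 1.97 CPM (SD, n = 3 each), with folds of 4.03, 11.6 and 1.31. The fold of CAP3_round1_contig_9503 and Bot_rep_c58343 was highest in SMG, also without young SMG library 1 (37.4 and 16.8) or young SB825 library 3 (29.2 and 12.2). For Bot_c1425 and CAP3_round1_contig_7012 it was highest in SB825 with all libraries, but in SMG without young SMG library 1. The line by age term was called for 9 of the 10, near the share over all contigs (80.8%), and for all 10 without young SMG library 1 (78.8% of all contigs).

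**Figure D3:**
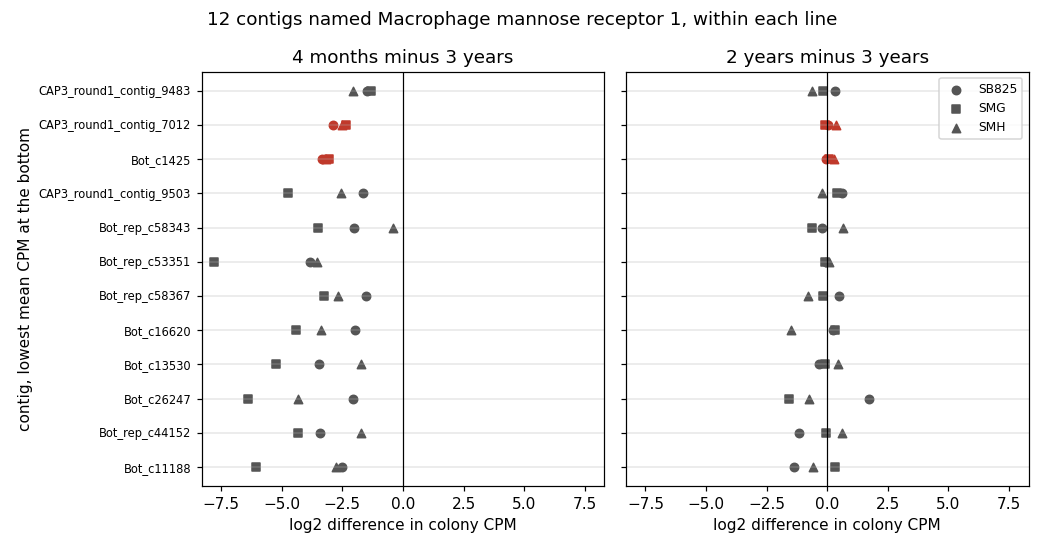
Difference in log2 colony CPM within each line for the 12 contigs named Macrophage mannose receptor 1, young minus old (left) and 2 years minus old (right), with marker shape for line and red for Bot_c1425 and CAP3_round1_contig_7012. All young minus old points are below 0, while the points on the right fall on both sides of 0.

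Contigs matched to related mannose receptors had this direction too, while not all other lectins did. A further 9 contigs were named for other members of the mannose receptor family (C-type mannose receptor 2, Lymphocyte antigen 75 and relatives, endocytic or collagen-binding lectins in mammals). These 9 were all lower in young colonies, with a median young minus old difference of -2.73. All 9 were above the midpoint at 2 years, where edgeR called 0 of them and 0 of all 43920 contigs. The contig with most reads, Bot_rep_c50451, had 11.7 ± 4.65 CPM (SD, n = 3) in old, 14.8 ± 7.75 CPM (SD, n = 3) in 2-year and 3.60 ± 3.28 CPM (SD, n = 3) in young colonies. Another 13 contigs match a Ciona mannose receptor but carry another human name. Of these, 12 were tested over age, all 12 were lower in young colonies and 10 were above the midpoint at 2 years. The share above it was 86.9% among all named rows at hand that were lower in the young. The contig with most reads, Bot_rep_c45512 (closest to human aggrecan), had 24.2 ± 8.35 CPM in old, 17.8 ± 7.03 CPM in 2-year and 4.04 ± 3.12 CPM in young colonies (SD, n = 3 each).

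Some other lectin contigs were higher in the young. CAP3_round1_contig_6383, matched in Ciona to a rhamnose-binding lectin, had 32.8 ± 48.8 CPM in old, 29.7 ± 12.7 CPM in 2-year and 704 ± 366 CPM in young colonies (SD, n = 3 each). Bot_rep_c36310, closest to human C-type lectin domain family 4 member C, a lectin of plasmacytoid dendritic cells, had 3.79 ± 6.12, 2.85 ± 3.05 and 86.5 ± 74.7 CPM (SD, n = 3 each). Of the 17 galectin, intelectin and rhamnose-binding lectin contigs 10 were higher in young colonies, as were 4 of the 13 tested contigs of other C-type lectins. All 9 contigs of complement and the lectin pathway were lower in young colonies, and 7 of 9 were above the midpoint at 2 years. The one with most reads, Bot_rep_c37224 (Complement C3, the central opsonin of complement in vertebrates), had 8.69 ± 5.26 CPM in old, 5.68 ± 0.94 CPM in 2-year and 2.87 ± 1.36 CPM in young colonies (SD, n = 3 each). All of these lists come from rows that differ between old and young, so their direction over age is not independent evidence. Of the named rows lower in the young, 86.9% lay above the midpoint at 2 years. In none of these lists was a contig called there. As edgeR called 0 of 43920 contigs in that comparison, this says nothing about the lists.

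Contigs of endosomes and lysosomes, where a mannose receptor delivers its cargo, were also lower in the young. The list holds 20 contigs (cathepsins, scavenger receptors, proactivator polypeptide and others), and their summed level was 375 to 618 CPM in old, 210 to 766 CPM in 2-year and 63.6 to 378 CPM in young libraries. Of the 19 tested over age, 18 were lower in young than old colonies and 18 were above the midpoint at 2 years. Among all named rows lower in the young, 86.9% were above it. None of the list was called there, as edgeR called 0 of 43920 contigs. This list too was drawn from the 1998 named rows at hand, which were listed for a difference between old and young. Of those rows 1678 were lower in young colonies, so the direction of the list is not independent evidence. The contig with most reads, CAP3_round1_contig_6910 (proactivator polypeptide, the precursor of the saposins that assist lysosomal lipid breakdown), had 141 ± 8.04 CPM in old, 167 ± 75.9 CPM in 2-year and 47.7 ± 35.7 CPM in young colonies (SD, n = 3 each).

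Markers of other tissues moved with age too, though the sum of the sperm and axoneme contigs overlapped between old and young SB825 libraries. The summed level of the 86 digestive enzyme contigs was 1041 to 9017 CPM in old, 1933 to 13046 CPM in 2-year and 301 to 4424 CPM in young libraries. Old colonies lay above young ones for 82 of the 86 (10.4% over all contigs, though these contigs were listed for that difference), also without either young library named above, and 38 had no read in at least 1 young library, none being at 0 in all of them. The 32 sperm and axoneme contigs summed to 29.5 to 271 CPM in old and 63.7 to 438 CPM in 2-year libraries. In young libraries the sum was 2.19 to 65.5 CPM. For 27 of the 32, all old colonies lay above all young ones, SB825 included (30 without young SB825 library 3). None was at 0 in all young libraries. The sum of all 32 in SB825 libraries was 29.5 to 82.4 CPM in old and 37.5 to 65.5 CPM in young. The contig with most reads, Bot_rep_c45338, was higher in the young SB825 colony than in the old one. Its old to young folds were 0.64 (SB825), 200 (SMG) and 33.7 (SMH). The 2 young libraries with most Bot_c1425, SB825 library 3 (4.74 CPM) and SMG library 1 (3.50 CPM), also held most digestive enzyme reads, at 988 and 4424 CPM. In the other 2 young SMG libraries, with 755 and 301 CPM of these contigs, Bot_c1425 was at 1.09 and 0.98 CPM. The part of tissue content in the levels of the mannose receptor contigs was not tested.

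Over the 18 old and 2-year libraries, the log2 CPM of Bot_c1425 had a Pearson's r of 0.84 with the summed endosome and lysosome list, 0.55 with the digestive enzyme list and -0.55 with the sperm and axoneme list. For CAP3_round1_contig_7012 these were 0.87, 0.54 and -0.65. Over the 9 young libraries r was 0.67, 0.63 and 0.34 for Bot_c1425 and 0.76, 0.74 and 0.14 for CAP3_round1_contig_7012. Without SMG library 1 these were 0.76, 0.69 and 0.55 for Bot_c1425 and 0.84, 0.82 and 0.36 for CAP3_round1_contig_7012. Without SB825 library 3 they were 0.71, 0.66 and 0.02, and 0.78, 0.76 and -0.18. These libraries share colonies and scaling, and the values are descriptions.

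**Figure D4:**
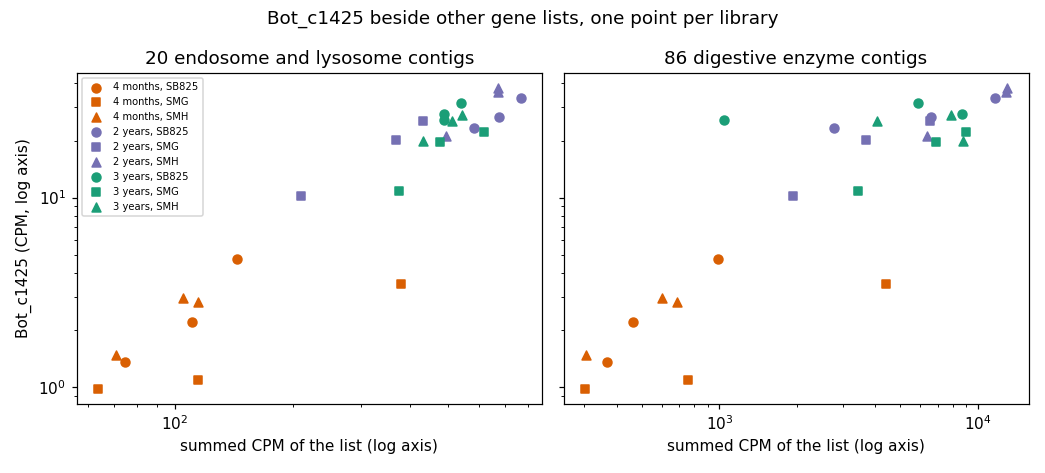
CPM of Bot_c1425 (y axis) against the summed CPM of 20 endosome and lysosome contigs (left) and 86 digestive enzyme contigs (right), all on log axes, with 1 point per library, colour for age and marker shape for line. Young SMG library 1 lies to the right of the other young libraries in both panels, at 378 and 4424 CPM.

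Each of the 2 contigs was the other's closest in pattern among the 43179 other contigs compared over the 27 libraries (Pearson's r = 0.99 on log2 of CPM plus 0.5). For Bot_c1425 the next were Bot_c899 (r = 0.97), closest to ectonucleotide pyrophosphatase/phosphodiesterase 1, a cell-surface enzyme that splits extracellular nucleotides, Bot_rep_c54243 (r = 0.97), closest to glutamyl aminopeptidase, and the proactivator polypeptide contigs Bot_rep_c53587 and CAP3_round1_contig_7853 (r = 0.96 each). For CAP3_round1_contig_7012 they were Bot_rep_c54720 (r = 0.97), closest to the secreted or membrane protease meprin A subunit beta, then Bot_c899 (r = 0.97) and the same 2 proactivator contigs. Bot_c899 had 66.6 ± 11.8 CPM in old, 78.7 ± 39.0 CPM in 2-year and 6.31 ± 2.42 CPM in young colonies (SD, n = 3 each), and Bot_rep_c54243 had 9.68 ± 2.45, 9.08 ± 2.19 and 0.65 ± 0.05 CPM (SD, n = 3 each). Bot_rep_c54720 had 70.8 ± 19.3, 67.7 ± 21.7 and 19.9 ± 3.39 CPM (SD, n = 3 each).

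Within the older libraries the likeness to these other contigs was lower. Over the 18 old and 2-year libraries alone r with Bot_c1425 was 0.95 for CAP3_round1_contig_7012, but 0.74 for Bot_c899, 0.58 for Bot_rep_c54243, 0.58 for Bot_rep_c53587 and 0.64 for CAP3_round1_contig_7853. With CAP3_round1_contig_7012 it was 0.89 for Bot_rep_c54720. The nearest other contig named Macrophage mannose receptor 1, Bot_rep_c53351, ranked 11 in likeness to Bot_c1425 and 44 in likeness to CAP3_round1_contig_7012. It had 9.63 ± 5.70 CPM in old, 9.42 ± 5.395 CPM in 2-year and 0.56 ± 0.56 CPM in young colonies (SD, n = 3 each). The lowest rank belonged to Bot_c13530, at 1352 and 1421.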

How the data were processed

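Poly(A) RNA of 27 whole-colony libraries was sequenced as read pairs on an Illumina HiSeq. Per the study's methods the authors cut 12 leading bases from the reads, aligned the pairs with Bowtie 0.12.7 against EST contigs and took read counts from SAMtools 0.1.18 output. The deposited table holds raw counts, not normalized, for 50106 contigs, and every count is even (0 odd), so each pair counts as 2 reads. A deposited table of the authors' own DESeq comparison (fold changes and p-values) was not used. Columns headed SMGO were read as SMG.

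Counts were analysed as deposited in R 4.3.3 with edgeR 4.0.16 (filterByExpr, TMM, robust quasi-likelihood F-test, Benjamini-Hochberg adjustment over all contigs tested, threshold 0.1). DESeq2 1.42.0 was an alternative. Age and line were tested on 9 colony sums, line pairs at 2 years and line by age on libraries. Differences within lines used log2 of CPM plus 0.01. Of the tests, 2 were run on simulated counts with 200 changed contigs. SB825 against SMG at 2 years recovered 198 with 25 false calls, and 2 years against the midpoint recovered 200 with 23 false calls. The simulated contigs shared the same spread and had no other differences between colonies, so this does not speak to the spread in these data. The members, gene lists and tests were chosen with earlier results of these data known. Named contigs were the 2 members, the 3 other contigs of that name with most counts, the contig with most counts in each of 9 lists, and for each member the 5 contigs nearest in pattern. Contigs named outside that rule (Bot_c13530, Bot_rep_c53351) were chosen after their values were seen. Colonies of a line at different ages deviated together (r 0.28 to 0.63), as parent and offspring share a line, so line was also used as a block. Intervals are 95%.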

Additional observations from a re-analysis of the deposited data

How the results depend on the processing

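The direction and call of both contigs in all line comparisons and in the line by age term were kept under every alternative run, apart from differences near 0 between SB825 and SMH, whose sign varied without a call. At 2 years against the midpoint both contigs kept their direction, and DESeq2 alone called them (1.69 and 1.42 on the log2 scale). The young minus old difference of Bot_c1425 was -3.03 with library totals alone and -2.95 with 0.5 CPM added before the log. Leaving out a line, a replicate number or 1 young library, it ranged from -3.50 to -3.00, and for CAP3_round1_contig_7012 from -2.93 to -2.42. Counts over all contigs moved more. DESeq2 called 118 contigs at 2 years against the midpoint, 1642 in old against young (10 with edgeR), and 9331, 6172 and 4505 between SB825 and SMG, SB825 and SMH, and SMG and SMH, where edgeR called 2040, 639 and 208 and a fit with no age term 3412, 1419 and 775. The cause was not tested. With line as a replicate block 0 contigs were called in old against young and 0 at 2 years. Leaving out 1 colony or 1 young library gave 0 to 3 calls at 2 years, 0 to 156 in old against young, and leaving out 1 colony 0 to 3813, 0 to 4512 and 0 to 426 in the 3 line pairs. Each colony left out moved the line pair counts by over 1.5 times, apart from the old SMH colony for SB825 against SMH, and the highest counts came without the young SMG colony. The 3 calls at 2 years came without the young SB825 colony. Without young SMG library 1 old against young gave 156 calls.

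Replicate numbers did not pair the libraries (same-numbered libraries of different colonies had deviations correlated at -0.37 to 0.24), and a replicate block on them gave 26320, 24116 and 19941 calls in the 2-year line pairs against 26522, 24318 and 20121 without it, and 34702 for line by age. Read pairs in place of reads gave 33092 there. The alternatives for the count of calls in old against young, and those without single young libraries, were chosen after seeing the data. Precision in the young is limited by low counts, with 34 to 238 reads of Bot_c1425 a library, by the spread between libraries of a colony, and by 3 colonies an age.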
